A study of Mus musculus and Rattus norvegicus with 36 samples.

Results

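Glutathione transferases outside the alpha class were read over every diet of a selenium (Se) feeding study in mice and rats. The members were all probe sets, the groups of short probes that together measure a transcript on the array, whose annotated symbol was Gstm, Gstp, Gstt or Mgst followed by a digit, or Gstk1, Gsto1 or Gstz1. They numbered 27 of 45037 probe sets on the mouse array, for 19 genes, and 19 of 31042 on the rat array, for 18 genes, 46 of 76079 in all. By class, the mouse members were 12 mu, 5 microsomal, 4 theta, 2 pi, 2 omega, 1 kappa and 1 zeta probe sets, and the rat members were 7 mu, 4 theta, 3 microsomal, 2 pi, 1 omega, 1 kappa and 1 zeta.

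Male weanling mice of a wild-type colony, mostly of C57 black background, ate a torula-yeast diet low in Se (SeDef), or this diet plus selenite at either 0.05 or at 0.2 μg Se/g, for 35 days, and liver and kidney were profiled. Male weanling Holtzman rats ate the basal diet as it was (SeDef), or with selenite at 0.08 or 0.24 μg Se/g, at 0.8 μg Se/g, or at 2 or 5 μg Se/g, for 28 days, and liver was profiled. As read from the study's results, the profiled rats at 0.8 and those at 0.08 came from study 1. The profiled SeDef, 0.24, 2 and 5 rats came from study 2. By its methods, both studies also fed diet groups that have no arrays here. All diets shared added vitamin E and methionine, and livers were perfused in place before removal. From each diet 3 animals were profiled, with 1 array for each tissue, and the rat diet groups themselves were larger. The comparisons ask which transcripts follow Se supply below and above the adequate level, taken as 0.2 μg Se/g in mice and 0.24 μg Se/g in rats.

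Glutathione transferases join the thiol of glutathione to reactive, electron-poor compounds, which are then exported and degraded towards mercapturic acids. The mu, pi, theta, omega and zeta enzymes are soluble, the kappa enzyme lies in mitochondria and peroxisomes, and the microsomal enzymes (Mgst) are unrelated membrane proteins. Several of these genes in rodent liver are switched on by Nrf2, a transcription factor that answers oxidative and electrophilic stress through antioxidant response elements, and rat Gstp1 has long been used as a marker of altered liver cells. Several transferases also reduce peroxides without Se, which glutathione peroxidase 1 (Gpx1), a selenoprotein, cannot do.

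Expression values were log2 units per probe set as deposited, so that a difference of 1 is a doubling, and array medians lay between 6.17 and 6.29. The word called is used where the adjusted p was below 0.05 (limma with Benjamini-Hochberg adjustment over all probe sets tested). With 3 animals against 3, an exact permutation test of a single value cannot go below p = 0.10. Labelled tissues matched their markers: the mean of the hepatocyte list was 13.4 to 13.6 in mouse livers and 8.49 to 9.27 in mouse kidneys, and that of the kidney list was 11.7 to 11.9 in kidneys and 5.51 to 5.83 in livers. In rat livers the hepatocyte list averaged 13.4 to 13.9. In whole tissue, fewer cells of a type and less RNA per cell cannot be told apart. One array stood apart, that of replicate 1 at 2 μg Se/g in the rat, with 1964 probe sets beyond 2-fold of the 0.24 mean against 136 and 147 for the other arrays of its diet.

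Upstream sequences of 4 mouse genes are shown, from the first listed transcript start where a gene has several. Gstm4 and Mgst3 had the smallest p in SeDef mouse liver without being called, and Gstp1 and Gstm5 hold motif matches. The mu genes lie together on chromosome 3 and the pi genes together on chromosome 19. Only mouse sequences were used, so they do not bear on the rat genes called below. Each run is the 250 bases before the RefSeq transcript start (GRCm38.p6, strand of the gene, 5′ to 3′), with capitals marking a match on either strand to TGACNNNGC, the core of the antioxidant response element, or to TGANTCA, the AP-1 site. Both motifs begin with TGA, so a stretch of bases can match both.
Gstp1 (chr19:4037913-4038162, minus strand): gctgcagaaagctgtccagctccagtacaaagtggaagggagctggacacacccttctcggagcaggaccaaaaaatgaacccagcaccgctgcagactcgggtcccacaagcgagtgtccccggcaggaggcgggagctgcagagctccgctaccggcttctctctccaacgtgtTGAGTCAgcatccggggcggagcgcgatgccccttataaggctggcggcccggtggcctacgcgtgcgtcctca
Gstm5 (chr3:107895604-107895853, plus strand): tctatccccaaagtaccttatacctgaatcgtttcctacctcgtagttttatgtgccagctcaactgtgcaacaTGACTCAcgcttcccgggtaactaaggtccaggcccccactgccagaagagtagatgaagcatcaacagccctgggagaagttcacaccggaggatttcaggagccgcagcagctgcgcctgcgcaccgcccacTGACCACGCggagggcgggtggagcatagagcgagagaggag
Gstm4 (chr3:108044860-108045109, minus strand): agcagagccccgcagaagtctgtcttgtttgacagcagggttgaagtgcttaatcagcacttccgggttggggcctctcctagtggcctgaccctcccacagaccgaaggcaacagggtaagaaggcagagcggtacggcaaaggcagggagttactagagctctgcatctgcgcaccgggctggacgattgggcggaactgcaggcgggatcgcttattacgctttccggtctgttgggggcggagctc
Mgst3 (chr1:167393842-167394091, minus strand): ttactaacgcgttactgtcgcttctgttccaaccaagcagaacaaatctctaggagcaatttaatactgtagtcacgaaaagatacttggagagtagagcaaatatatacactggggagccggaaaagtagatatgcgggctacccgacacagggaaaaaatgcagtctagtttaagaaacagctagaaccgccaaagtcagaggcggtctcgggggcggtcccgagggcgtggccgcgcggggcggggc
The Gstp1 window holds TGAGTCA from 74 to 68 bases before the start. The Gstm5 window holds TGACTCA from 176 to 170 bases and TGACCACGC from 42 to 34 bases before the start. Gstm4 and Mgst3 have no match to either motif in these letters. The Gstm4 window lies within the span of the gene (108030571 to 108045179), so it precedes a transcript start inside the gene. Of 19 member genes 18 had an entry, in 26 windows, and Gstt2 had none. TGACNNNGC occurred for 3 genes (Gstm5, Gstm7 and Mgst1) and TGANTCA for 3 genes (Gstm5, Gstp1 and Mgst2), so that 5 genes had either and 13 had neither. Among all 32851 windows of this length, 10.2% held TGACNNNGC and 6.75% held TGANTCA. These are shares of windows, while a member gene counted if any of its windows matched, so they are not directly comparable. A match describes letters in the window and does not show that a factor binds there.

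In rats fed 5 μg Se/g, 3 of 19 member probe sets were called against 0.24 μg Se/g, a pair of pi genes in opposite directions and a mu gene. Gstp1 rose 5.47-fold, Gstm3 rose 4.70-fold and Gstp3 fell 4.22-fold, while the other 16 probe sets had log2 differences between −0.24 and 0.60. Among all probe sets 2.82% were called, 2.21% higher and 0.609% lower.

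Gstp1, the placental form of the transferases and in normal rat liver mainly a bile duct protein, stood at 12.45, 12.09 and 11.63 in the livers at 5 μg Se/g, against 9.63, 9.55 and 9.63 at 0.24 μg Se/g. The log2 difference was 2.45 (SE 0.41, adjusted p = 0.0084). At 2 μg Se/g its values were 8.83, 10.05 and 11.04, and SeDef livers averaged 9.88 ± 0.12 (SD, n = 3). Every rat at 5 μg Se/g was above every other rat of study 2. At 2 μg Se/g replicate 1 was below, and replicates 2 and 3 above, all rats at 0.24 μg Se/g and SeDef. Gstp1 was the member that stayed called whichever array of either diet was left out, with log2 differences of 2.26 to 2.67 and adjusted p up to 0.049.

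Gstp3, a pi class paralogue of Gstp1, went the other way, with 10.95, 12.10 and 10.80 at 5 μg Se/g against 13.40, 13.27 and 13.41 at 0.24 μg Se/g. It fell by 2.08 on the log2 scale (SE 0.37, adjusted p = 0.012). At 2 μg Se/g it stood at 11.60, 12.73 and 13.05, and in SeDef livers at 12.73, 13.11 and 13.20. All rats at 5 μg Se/g lay below those at 0.24 μg Se/g and SeDef, and replicate 2, the highest at 5 μg Se/g, overlapped with the rats at 2 μg Se/g. Its call was lost when replicate 1 (adjusted p = 0.051) or replicate 3 (0.054) at 0.24 μg Se/g was left out, and likewise for replicate 1 at 5 μg Se/g (adjusted p = 0.065).

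Gstm3, a mu class gene low in livers of the other diets, had 9.47, 8.56 and 7.79 at 5 μg Se/g, against 6.31, 6.41 and 6.40 at 0.24 μg Se/g. The log2 difference was 2.23 (SE 0.47, adjusted p = 0.026). At 2 μg Se/g it had 5.64, 6.09 and 7.65, and in SeDef livers 6.27, 6.49 and 6.42. The rats at 5 μg Se/g were above all others of study 2, the lowest of them only just above replicate 3 at 2 μg Se/g. The call was lost when any single array of either diet other than replicate 3 at 5 μg Se/g was left out, with adjusted p up to 0.11.

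**Figure D1:**
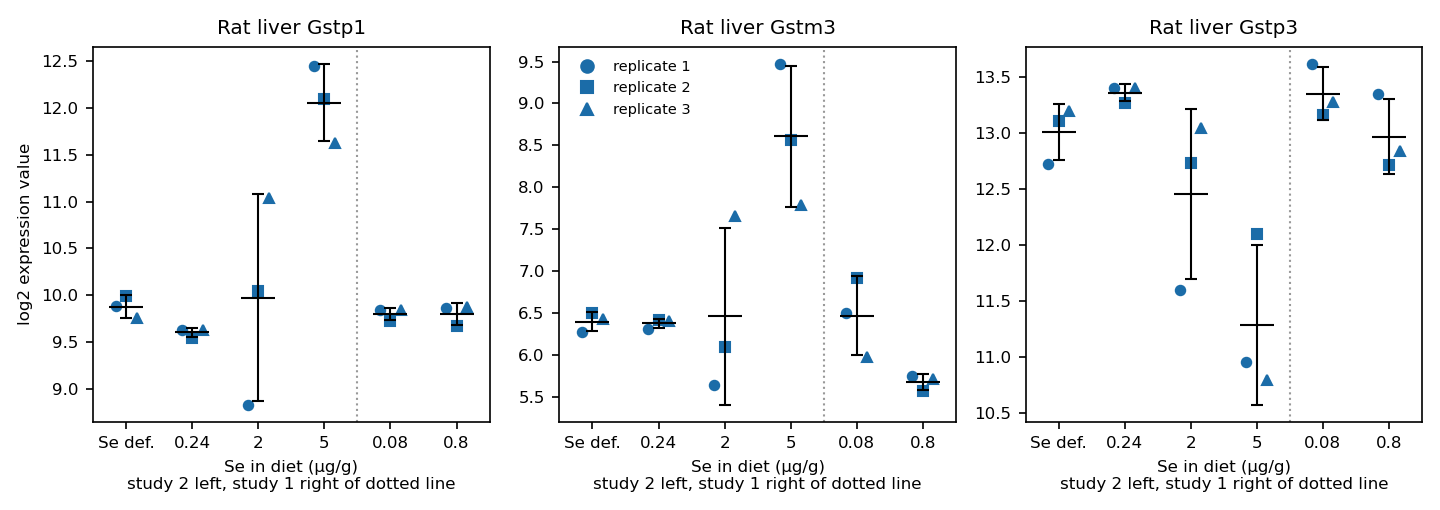
Log2 expression of Gstp1, Gstm3 and Gstp3 in each rat liver by diet (μg Se/g), with study 2 left and study 1 right of the dotted line. Points are single rats and bars are the mean ± SD of 3 rats. At 5 μg Se/g Gstp1 spans 11.63 to 12.45 and Gstm3 7.79 to 9.47, above the other diets of study 2, and Gstp3 spans 10.80 to 12.10, below 0.24 μg Se/g and SeDef.

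Of the other mu members 4 lay higher at 5 μg Se/g without being called. Gstm1, a major mu subunit of rat liver, had 14.04, 13.89 and 13.78 at 5 μg Se/g against 13.53, 13.66 and 13.42 at 0.24 μg Se/g (log2 difference 0.37, SE 0.14, adjusted p = 0.25). Gstm4 differed by 0.41 (SE 0.17, adjusted p = 0.28), Gstm2 by 0.52 and Gstm5 by 0.43. In each of these 4 genes the diets did not overlap, whereas Gstm7 (−0.19) and Gstm6l (−0.12) were on the other side of 0. Over all classes 7 members were higher and 4 lower without overlap of the groups, against 11.1% and 12.5% of all probe sets. The median log2 difference of the members was 0.05, and that of all probe sets was −0.03.

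No member of the theta, omega, zeta, kappa and microsomal classes was called at 5 μg Se/g. Gstt3, a theta class gene, had 12.75, 12.62 and 12.83 against 12.53, 12.11 and 11.77 at 0.24 μg Se/g (log2 difference 0.60, SE 0.25, adjusted p = 0.28), while Gstt1 differed by 0.05 and the Gstt2 probe sets by 0.03 and −0.20. Gstz1, the maleylacetoacetate isomerase of tyrosine breakdown, had 12.47, 12.55 and 12.57 against 12.84, 12.76 and 12.71 (log2 difference −0.24, SE 0.09, adjusted p = 0.22). Microsomal Mgst1, Mgst2 and Mgst3 differed by −0.06, 0.19 and −0.15. Gstk1 differed by −0.15 and Gsto1, which also reduces dehydroascorbate, by 0.06.

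Against SeDef livers, the rats at 5 μg Se/g showed the same 3 calls of 19, with 2.31% of all probe sets called. Gstp1 was 2.18 higher (SE 0.41, adjusted p = 0.017), Gstm3 2.21 higher (SE 0.47, adjusted p = 0.031) and Gstp3 lower, with a log2 difference of −1.73 (SE 0.37, adjusted p = 0.033). Gstt3 followed at 0.69 (adjusted p = 0.23). This comparison shares the rats at 5 μg Se/g with the one against 0.24 μg Se/g, so it is no separate support. No member stayed called without any 1 SeDef array or without replicate 1 at 5 μg Se/g, with adjusted p for Gstp1 of 0.065 to 0.085, and Gstp3 alone was called without replicate 2 at 5 μg Se/g.

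Set against the diet with 2 μg Se/g, livers at 5 μg Se/g had 2 of 19 members called, Gstp1 at 2.08 (SE 0.41, adjusted p = 0.026) and Gstm3 at 2.15 (SE 0.47, adjusted p = 0.034), with 3.34% of all probe sets called. Gstt2, of the theta class, had 11.33, 11.21 and 11.05 at 5 μg Se/g against 10.59, 10.77 and 10.87 at 2 μg Se/g without overlap (log2 difference 0.45, SE 0.13, adjusted p = 0.075), but its other probe set differed by 0.12. Gstp3 differed by −1.18 (adjusted p = 0.097). Without replicate 1 at 2 μg Se/g, Gstp1 differed by 1.51 (adjusted p = 0.032), Gstp3 was called too, and Gstm3 was not (1.74, adjusted p = 0.11). Neither gene was called when replicate 2 at 2 μg Se/g, or replicate 1 or 2 at 5 μg Se/g, was left out, and 13 members were called without replicate 3 at 2 μg Se/g, where 26.6% of all probe sets were called.

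**Figure D2:**
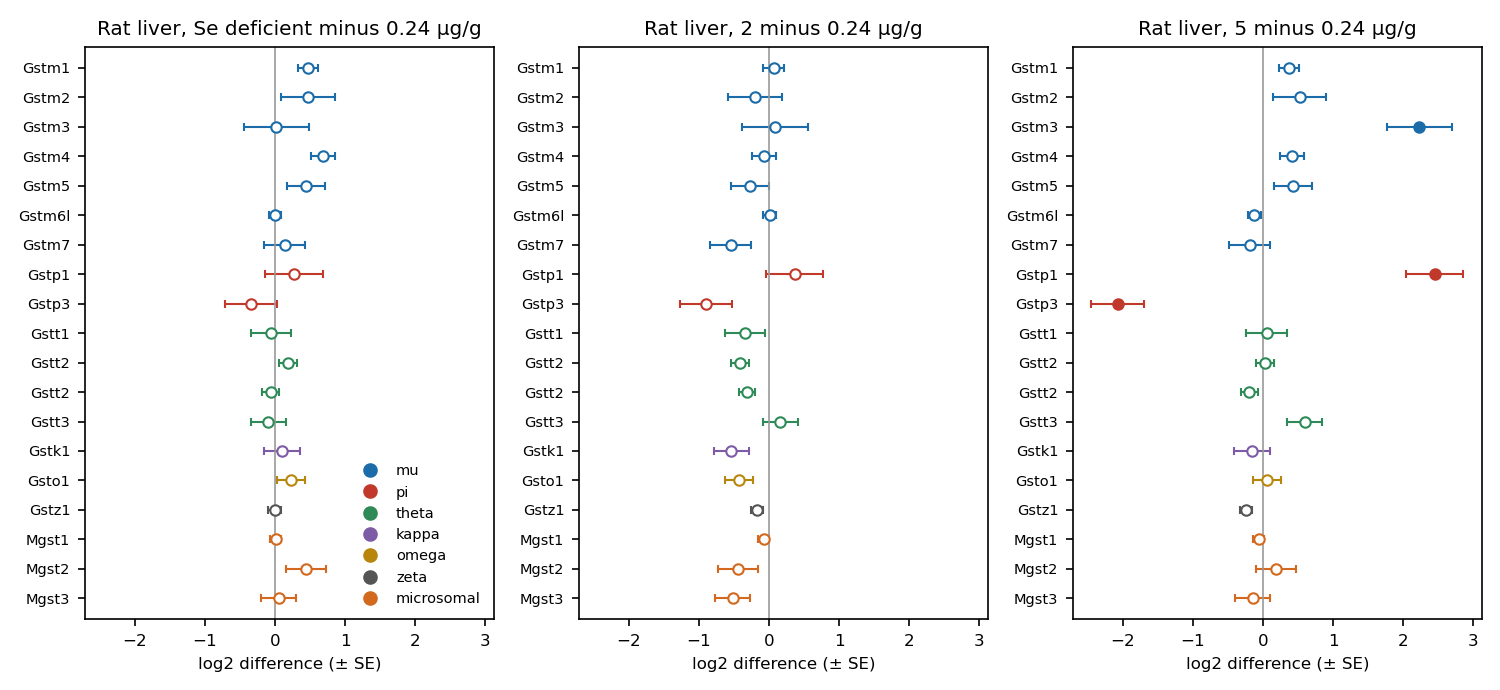
Log2 difference ± SE of the 19 rat member probe sets in liver for SeDef, 2 and 5 μg Se/g, each against 0.24 μg Se/g. Filled points have an adjusted p under 0.05 (limma), and these are Gstp1 (2.45), Gstm3 (2.23) and Gstp3 (−2.08) at 5 μg Se/g.

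With 2 μg Se/g in the diet none of the 19 members was called against 0.24 μg Se/g (limma), with 0.00322% of all probe sets called. At an unadjusted p under 0.05 there were 0 higher (8.49% of all) and 3 lower (6.85%). The members leaned low, with 5 of 19 above 0, against 45.5%, and a median log2 difference of −0.27, against −0.02 over all probe sets. Gstt2 had the smallest p, with 10.59, 10.77 and 10.87 at 2 μg Se/g against 10.97, 11.15 and 11.36 at 0.24 μg Se/g. Its log2 difference was −0.42 (SE 0.13, adjusted p = 0.32), and that of its other probe set −0.31. Gstp3 differed by −0.90 (SE 0.37, adjusted p = 0.32) and Gsto1, at 10.73, 11.41 and 11.79 against 11.78, 11.71 and 11.72, by −0.43 (SE 0.20, adjusted p = 0.33). Gstt2, Gstp3, Gstz1 and Mgst1 were lower without overlap, 4 of 19 against 6.9% of all probe sets, and 0 were higher, against 5.85%.

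The lean differed between arrays, and the members at 2 μg Se/g varied more than in the other rat groups. In replicate 1, the array that stood apart, 18 of 19 members were below the 0.24 mean and 12 were below it by over 0.5, against 11.5% of all probe sets, and the median deviation was −0.77. Replicate 2 had 17 members below the mean (median −0.29), while replicate 3 had 14 above it (median 0.25). The median SD of the members was 0.676 at 2 μg Se/g, with 11 above 0.5, and lay between 0.113 and 0.175 in the other 5 rat groups. Over all probe sets the median SD was also highest at 2 μg Se/g, at 0.174 against 0.111 to 0.140 in the other rat groups. Gstk1 shows the pattern, with 11.07, 11.93 and 12.45 at 2 μg Se/g against 12.47, 12.26 and 12.32 at 0.24 μg Se/g. Mgst2, a leukotriene C4 forming enzyme, had 11.30, 12.28 and 12.83 against 12.75, 12.53 and 12.46. With replicate 3 left out 7 members were called lower, with Gsto1 at −0.67 (adjusted p = 0.018), while 18.7% of all probe sets were called in that fit.

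**Figure D3:**
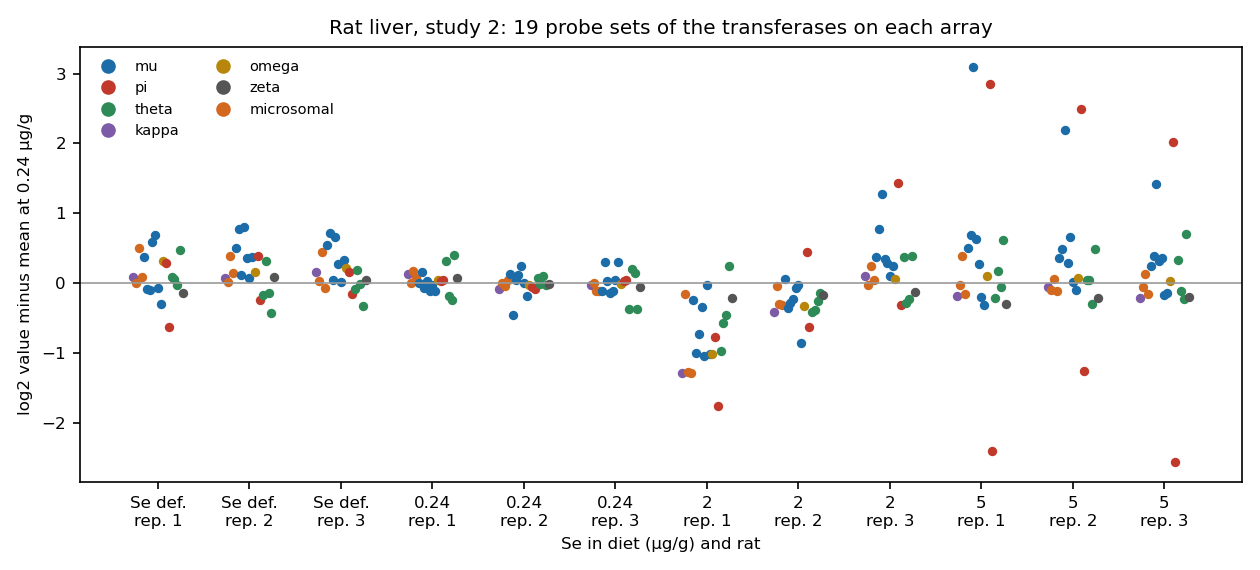
Each of the 19 rat member probe sets (points) on each array of rat study 2 as its log2 deviation from the average of the rats at 0.24 μg Se/g. Replicate 1 at 2 μg Se/g lies lowest, with a median of −0.77, and replicate 3 of the same diet has a median of 0.25.

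In rat study 1, no member was called at 0.8 against 0.08 μg Se/g (limma, 0% of all probe sets called), and at an unadjusted p under 0.05 there were 0 higher (1.83% of all) and 2 lower (2.75%). Gstm3 had 5.75, 5.56 and 5.70 at 0.8 μg Se/g against 6.50, 6.92 and 5.97 at 0.08 μg Se/g (log2 difference −0.79, SE 0.21, adjusted p = 0.97). Its groups did not overlap, the only such member, against 5.26% of all probe sets lower in this way. Gstm7, with 9.82, 9.38 and 9.56 against 10.50, 10.34 and 9.81, differed by −0.63 (adjusted p = 0.97). Gstp3 differed by −0.39 and Gstp1 by 0.00. All 7 mu members were below 0, by −0.04 to −0.79, and the 3 microsomal members were above it, by 0.002 to 0.09. Among all 31042 probe sets 15540 were above 0.

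Se deficiency called no member in rat liver (0.00322% of all probe sets called), although all 7 mu members lay above 0. Gstm4 had 10.48, 10.70 and 10.56 in SeDef livers against 9.92, 10.02 and 9.75 at 0.24 μg Se/g, a log2 difference of 0.68 (SE 0.17, adjusted p = 0.999). Gstm1 had 13.91, 14.04 and 14.08 against 13.53, 13.66 and 13.42 (0.47, SE 0.14, adjusted p = 0.999), and Gstm5 7.48, 7.15 and 7.06 against 6.67, 7.03 and 6.67 (0.44, SE 0.28, adjusted p = 0.999). The SeDef rats were above all rats at 0.24 μg Se/g for each of these 3 genes, and also for Mgst2 (0.44), Gsto1 (0.23) and Gstp1 (0.27). That made 6 members higher without overlap, against 5.75% of all probe sets, and 1 lower, Gstp3 (−0.35), against 5.89%. At an unadjusted p under 0.05 there were 2 members higher, Gstm4 and Gstm1 (1.52% of all), and 0 lower (1.88%). Of all 19 members 14 were above 0, against 45.9%.

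In mouse liver, SeDef members were mostly higher than at 0.2 μg Se/g, but none was called (limma, 0.0222% of all probe sets called). Of 27 probe sets 22 were above 0, against 43.9% of all. At an unadjusted p under 0.05 there were 11 higher, against 2.39% of all, and 0 lower, against 2.24%. The median log2 difference was 0.12, and −0.02 over all probe sets. Without overlap 8 were higher, against 3.45%, and 0 lower, against 4.15%. The 8 were 6 mu probe sets, 1 of Mgst3 and 1 of Gsto1. Several of these probe sets share genes or paralogous sequence, so they are not all separate measurements. A suffix on 8 of the 27 marks probes shared among transcripts, which for some of the 8 are transcripts of the same gene.

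Gstm4 (gene at chromosome 3, 108030571 to 108045179, GRCm38.p6) had the smallest p in mouse liver, with 11.69, 11.63 and 12.01 in SeDef livers against 11.23, 11.13 and 11.17 at 0.2 μg Se/g. The log2 difference was 0.60 (SE 0.10, adjusted p = 0.26). Mgst3 (chromosome 1, 167371966 to 167393841), a microsomal enzyme with transferase and peroxidase activity, had 9.49, 9.41 and 9.56 against 9.12, 8.79 and 8.76 (0.60, SE 0.10, adjusted p = 0.27). Its other probe set, with levels of 6.69 to 6.94 over these 6 livers, differed by −0.12, so the direction rests on 1 probe set. Without replicate 1 at 0.2 μg Se/g Mgst3 was called (0.71, adjusted p = 0.038). For both genes all SeDef mice lay above all mice at 0.2 μg Se/g.

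Gstm2, another mu gene, had 11.05, 11.01 and 10.93 in SeDef livers against 10.83, 10.31 and 10.47 (0.46, SE 0.13, adjusted p = 0.93), again without overlap. The 4 probe sets of Gstm1 differed by 0.26 to 0.37, each without overlap, and the brightest had 14.42, 14.30 and 14.38 against 14.26, 13.99 and 14.06. Gstm3 differed by 0.49 and 0.64 on its 2 probe sets, where the 0.2 mice spread from 10.13 to 11.35 on the more variable one and the groups overlapped. Gstm7 was the mu exception, with −0.09 and −0.15. Gstp1 differed by 0.12 and Gstp3 by 0.14, the theta members by −0.08 to 0.06, Gstz1 by −0.03 and Gstk1 by 0.03.

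**Figure D4:**
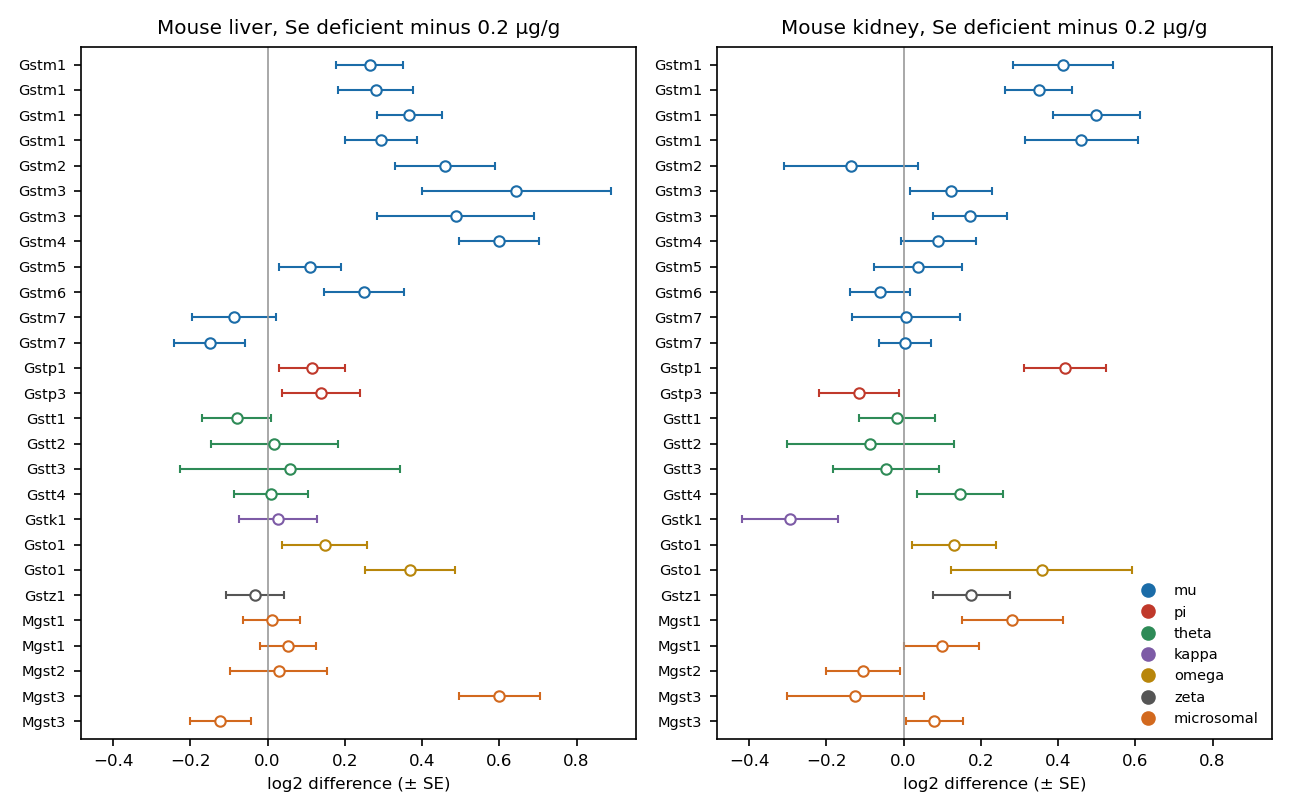
Log2 difference ± SE of the 27 mouse member probe sets in SeDef against 0.2 μg Se/g, for liver and kidney. No point is filled, as none had an adjusted p under 0.05 (limma). Gstm4 and Mgst3 lie at 0.60 in liver, and Gstp1 at 0.42 in kidney.

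With marginal Se in mouse liver most members lay below 0, and no member was called (0% of all probe sets called at 0.05 against 0.2 μg Se/g). Of 27 probe sets 5 were above 0, against 51.4% of all, with a median log2 difference of −0.06. At an unadjusted p under 0.05 there were 0 higher (1.07% of all) and 1 lower (0.879%). That was Gstt1, a theta enzyme that acts on small halogenated compounds, with 12.23, 12.45 and 12.16 at 0.05 μg Se/g against 12.46, 12.55 and 12.44 (−0.20, SE 0.09, adjusted p = 1.0). Gstk1 differed by −0.21 and Mgst3 by −0.20. This comparison shares its 0.2 mice with the SeDef comparison. For Mgst3 the mice at 0.05 μg Se/g had 8.59, 8.68 and 8.81, so they did not lie between the SeDef and 0.2 mice.

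In SeDef kidney no member was called either (0.00666% of all probe sets called). Probe sets of Gstm1 and Gstp1 had the smallest p. Gstp1 (chromosome 19, 4035411 to 4037912) had 12.65, 12.56 and 12.53 in SeDef kidneys against 12.20, 12.38 and 11.91 at 0.2 μg Se/g (log2 difference 0.42, SE 0.11, adjusted p = 0.89). The brightest Gstm1 probe set had 12.53, 12.43 and 12.42 against 11.99, 12.36 and 11.79 (0.41, SE 0.13, adjusted p = 0.89), and all 4 Gstm1 probe sets lay between 0.35 and 0.50. Gstk1 was on the other side, with 9.63, 9.53 and 9.55 against 10.12, 9.79 and 9.68 (−0.29, SE 0.12, adjusted p = 0.89).

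The SeDef kidneys were above all kidneys at 0.2 μg Se/g for 7 member probe sets, those of Gstm1 with Gstp1, Mgst1 (0.28) and Gstz1 (0.18), against 4.41% of all probe sets, and below them for 1, Gstk1, against 4.25%. In all, 18 of 27 members were above 0, against 47.3%, and at an unadjusted p under 0.05 there were 5 higher (2.77% of all) and 1 lower (2.66%). Gstm4, Gstm2 and Mgst3, which led in liver, differed by 0.09, −0.14 and −0.13 in kidney. At 0.05 against 0.2 μg Se/g in kidney, 0 members were called (0% of all), and at an unadjusted p under 0.05 there were 0 higher (1.56% of all) and 0 lower (1.35%), with Gstm4 at −0.16, Gstk1 at −0.21 and Gstm1 at −0.20.

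**Figure D5:**
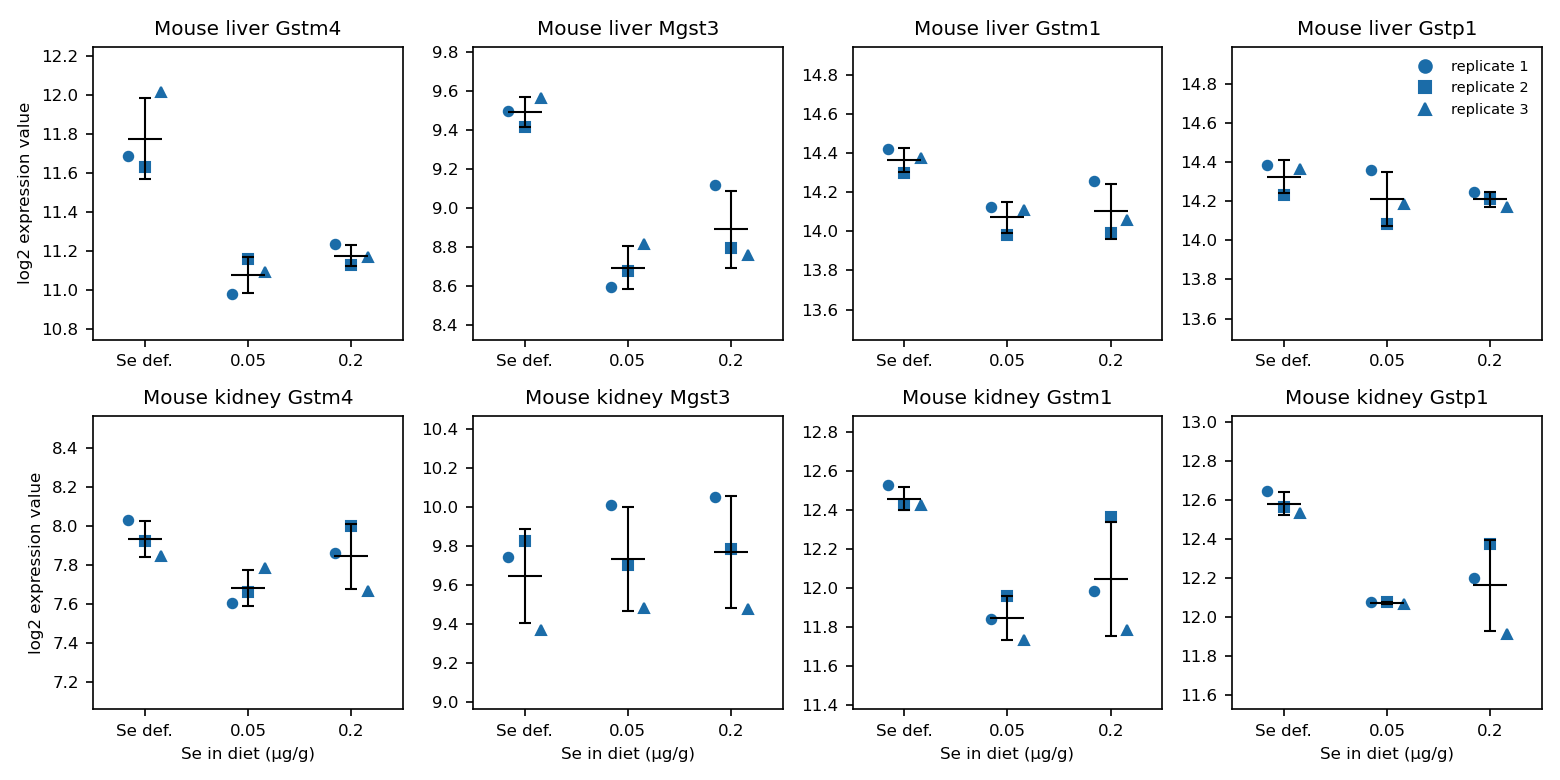
Log2 expression of Gstm4, Mgst3, Gstm1 and Gstp1 in each mouse by diet (μg Se/g), with liver in the upper and kidney in the lower row. Points are single mice, bars are the mean ± SD of 3 mice, and each panel spans 1.5 log2 units. In liver the SeDef mice lie highest for Gstm4 (11.63 to 12.01) and Mgst3 (9.41 to 9.56), and in kidney for Gstp1 (12.53 to 12.65).

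The response to Se deficiency was compared between liver and kidney directly. By the study's methods both tissues came from the same 3 mice per diet, which this fit treats as separate samples. No member passed (limma, 0.00222% of all probe sets called), and at an unadjusted p under 0.05 there were 4 more positive in liver (2.41% of all) and 1 more negative (3.39%). Liver minus kidney, the response differed by 0.51 for Gstm4 (SE 0.15), 0.73 for Mgst3 (SE 0.22) and 0.60 for Gstm2 (SE 0.23), each with an adjusted p of 0.835, and by −0.30 for Gstp1 (SE 0.14). The other Mgst3 probe set gave −0.20. With liver and kidney of the same diet and number as a replicate block, 0 members were called and Gstm4, Mgst3 and Gstm2 had an adjusted p of 0.714 each. A difference between the tissues was not detectable for any member with 3 mice a group.

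Levels at 0.2 μg Se/g are given as a description, since liver and kidney arrays were normalized separately. Of 27 probe sets 22 were higher in liver without overlap, against 31.4% of all probe sets, 3 were higher in kidney, against 38.6%, and 2 overlapped. By over 1 log2 unit, 19 were higher in liver, against 6.25%, and 1 in kidney, against 8.55%. Gstm3 averaged 13.00 ± 0.52 in liver and 8.95 ± 0.06 in kidney on its brighter probe set, and 10.71 ± 0.62 and 6.29 ± 0.23 on the other. Gstm6 averaged 9.88 ± 0.22 in liver and 5.52 ± 0.09 in kidney (SD, n = 3 each). Mgst1, an abundant membrane transferase of liver, was 3.56 higher in liver, and Gstm4 3.33 higher. Gstm5 ran the other way, with 9.25 ± 0.04 in liver and 11.61 ± 0.24 in kidney (SD, n = 3 each), and Mgst3 was 0.88 lower in liver than in kidney. Probe sets of a gene did not always give the same picture: Gstm7 was 2.69 higher in liver on 1 probe set and 0.09 lower on the other, and Mgst1 was 0.41 higher on its dim probe set.

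The rest of the glutathione pathway was read beside the members at 5 μg Se/g in rat liver. Of all probe sets 2.82% were called in this comparison, 2.21% higher and 0.609% lower. Of 3 alpha class transferases 1 was called, Gsta3, higher by 1.22 (adjusted p = 0.017). Slc7a11, the cystine importer that feeds glutathione synthesis, was the single call among 7 genes of synthesis and recycling (2.46, adjusted p = 0.00037). Of 8 efflux transporters 2 were called, Abcc3 (2.44) and Abcc4 (1.36), which carry conjugates out across the basolateral membrane. Of 8 genes of the mercapturic acid pathway 2 were called, Nat8, the final acetylation enzyme, at −1.32 and the dipeptidase Dpep1 at 0.41, while Ggt1, which starts conjugate degradation, differed by 0.96 (adjusted p = 0.12). Of 18 textbook Nrf2 targets outside the transferases 3 were called, all higher, namely Akr1b8 (4.63), Srxn1 (0.90) and Slc7a11, already counted above. Of these 18 targets 16 lay above 0, against 13213 of all 31042 probe sets. Of 12 other glutathione-linked enzymes 0 were called, with Gpx2 at 2.93 (adjusted p = 0.15). Of 4 nuclear receptor and Ah receptor targets 1 was called, Cyp1a2, at −1.17.

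Some markers of other liver cells differed with the same diet. Krt19, a keratin of bile duct cells, had 9.38, 8.53 and 8.22 at 5 μg Se/g against 6.19, 6.37 and 5.67 at 0.24 μg Se/g (2.63, SE 0.32, adjusted p = 0.0018), the single call among 7 bile duct markers measured of 10 listed, all of which lay above 0. The mean of that list was 6.25 to 7.05 at 5 μg Se/g and 5.74 to 6.39 at 0.24 μg Se/g, so the groups overlapped. The hepatocyte list had 0 of 8 called and means of 13.61 to 13.69 at 5 μg Se/g and 13.62 to 13.80 at 0.24 μg Se/g. Of the stellate and fibroblast list 3 of 8 were called (Col1a1 and Des higher, Lrat lower), with 6 above and 2 below 0. Of endothelium 3 of 5 were called (Pecam1, Vwf and Tek, all higher), and the other 2 lay below 0. Of Kupffer cell and macrophage genes 1 of 7 was called (Clec4f, lower), with 4 above and 3 below 0. Among all probe sets 2.82% were called, and 13213 of 31042 lay above 0. Whether these cells have a part in the differences of Gstp1, Gstm3 and Gstp3 was not tested.

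In Se deficiency few probe sets were called at all, 0.0222% in mouse liver, 0.00666% in mouse kidney and 0.00322% in rat liver. In mouse liver 1 of 17 Nrf2 targets was called, Cbr3, a carbonyl reductase (2.94, adjusted p = 1.6e-05), with 15 above 0, against 43.9% of all. At an unadjusted p under 0.05 (limma) 10 of these 17 were higher (2.39% of all) and 1 lower (2.24%). The efflux transporter Abcc4 (1.89, adjusted p = 0.023) was called among 9, and Gpx1 fell by 1.15 on the log2 scale (adjusted p = 0.00013), the single call among 11 other glutathione-linked enzymes. None of 3 alpha class members was called there, with Gsta2 at 0.95 and Gsta4 at 0.80. Gpx1 was also lower in SeDef kidney (−1.26) and SeDef rat liver (−1.87), where it was the single call among all pathway lists. Of 18 Nrf2 targets in SeDef rat liver 0 were called and 16 lay above 0, against 45.9% of all. At an unadjusted p under 0.05 (limma) 6 of these 18 were higher (1.52% of all) and 1 lower (1.88%).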

How the data were processed

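The authors deposited log2 expression values per probe set for 36 arrays (18 mouse, 18 rat). The submitters' notes name GCRMA and the study's methods name RMA. By those methods, arrays of each study and tissue were processed separately. Some deposited rat values were identical between the studies, as for an Alb probe set at 14.8375 in replicate 1 at 0.08 μg Se/g and replicate 1 at 2 μg Se/g. Whether the deposited rat values were processed by study is therefore not settled. Values were used as deposited, without a filter on signal. They hold no counts or detection calls, so that the 3 arrays a group limit precision. Animals were housed singly. Each array is 1 tissue of 1 animal, and by the study's methods mouse liver and kidney came from the same mice (3 per diet), though the labels do not say which arrays share a mouse.

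Control probe sets (64 mouse, 57 rat) were left out. Tests used limma 3.58.1 in R 4.3.3, with 1 coefficient per diet, eBayes, and Benjamini-Hochberg adjustment over all probe sets at 0.05. Each mouse tissue, rat study 2 and rat study 1 were fitted separately, and the response in liver was compared with that in kidney in a fit of all mouse arrays. The fit was tested on simulated data.

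Gene symbols came from the platform annotation (34945 mouse and 20826 rat probe sets had 1 symbol, 932 and 436 several, 9160 and 9780 none). Members and lists were chosen with earlier results of these data known. Named were every called member and, per comparison, the 3 member genes with the smallest p. Other members and genes were named after their values were seen. Where several probe sets measure a gene, the brightest over the fit stands for it. Mouse positions and upstream sequences are RefSeq, GRCm38.p6.

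Replicate numbers of the labels were checked as pairs. For SeDef against 0.2 μg Se/g in mouse liver, deviations of same-numbered arrays correlated at 0.462, 0.105 and 0.319, all above 0.1, and for liver against kidney of the same number at 0.212 to 0.249 in the 0.05 group and 0.116 to 0.241 in the 0.2 group but not in SeDef. Alternatives were other sets of arrays in the fit, limma with trend and robust, array weights, a filter on dim probe sets, quantile normalization, a replicate block, other probe sets of a gene and leaving out each array.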

Additional observations from a re-analysis of the deposited data

How the results depend on the processing

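Counts of called members (limma) held within 1.5 times in the mouse kidney comparisons, in mouse liver at 0.05 μg Se/g, between the tissues, in SeDef rat liver and at 0.8 against 0.08 μg Se/g, under every alternative run. In SeDef mouse liver the count was 1 instead of 0 with all 18 arrays in a fit (Gstm4, adjusted p = 0.043, range over its alternatives 0.043 to 1). It was also 1 with array weights (Mgst3, adjusted p = 0.024, range 0.024 to 1), and each of these fits called 0.0488% of all probe sets. With an array left out it was 0 to 1, with 0.0133% to 0.0466% of all called. At 2 against 0.24 μg Se/g it was 11 with array weights, where 42.0% of all probe sets were called, and 0 to 7 with an array left out, with 0.00322% to 18.7% of all called (7 and 18.7% without replicate 3 at 2 μg Se/g). At 5 against 0.24 μg Se/g it was 5 with array weights instead of 3 (10.3% of all called), and 1 to 3 with an array left out, with 1.13% to 3.85% of all called (1, Gstp1, without replicate 1 or 3 at 0.24 μg Se/g or replicate 1 at 5 μg Se/g). At 5 against 2 μg Se/g it was 0 with only those arrays (0.029% of all called) and 4 with all 18 arrays (7.71%). It was 14 with array weights (48.2%), and 0 to 13 with an array left out, with 0.47% to 26.6% of all called. At 5 μg Se/g against SeDef it was 0 to 3 with an array left out, with 0.983% to 3.30% of all called. Array weights did not converge in the fit of rat study 2.

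The other probe set of Mgst3 turned its direction, to −0.12 in SeDef mouse liver and −0.20 for liver minus kidney. Leaving out replicate 1 at 2 μg Se/g was an alternative added after the data were seen. Without it, 5 μg Se/g still gave 3 calls against 0.24 μg Se/g (limma, 3.85% of all called). There Gstp1 had an adjusted p of 0.00058 (range over its alternatives 4.4e-05 to 0.049). Against SeDef, 5 μg Se/g gave 3 calls (3.3% of all), and SeDef against 0.24 μg Se/g gave 0 (0.0129%). Over 33 results for single genes and 460 alternatives, 411 kept direction and side of the threshold, 35 lost a call, 12 gained one and 2 turned direction. Gstm3 was below the median at 0.8 against 0.08 μg Se/g and so has no value under the filter on dim probe sets.

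With the replicate block, 0 members were called in SeDef mouse liver, as without it, and 0 for liver minus kidney. Of all probe sets 0.0355% and 0.00222% were called in these 2 fits. Against 0.24 μg Se/g, same-numbered rat arrays correlated at 0.104, 0.055 and 0.304 for SeDef and at 0.125, 0.032 and 0.022 for 5 μg Se/g. In rat study 2 such correlations were not all above 0.1 in any comparison, so a pairing of those arrays is not settled. There the block left 1 call (Gstp1) at 5 against 2 μg Se/g (limma, 2.5% of all called), where Gstm3 had an adjusted p of 0.057. Gstm3 had 0.054 against 0.24 μg Se/g (2.52% of all called) and 0.061 against SeDef (2.2%). The block changed no other call.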
